A study of Mus musculus with 13 samples.

Results

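H3K4me3 called peaks found only in newly formed oligodendrocytes (NFOs) are described here. A peak was chosen by its position: it was listed for NFOs and shared not even 1 bp with any listed H3K4me3 peak of neural stem cells (NSCs) or oligodendrocyte precursor cells (OPCs). Of the 21736 listed NFO peaks, 7795 (35.9%) were NFO-only in this sense, and the other 13941 overlapped a peak of at least 1 of the other cell types. Because absence from the NSC and OPC lists was the criterion, the number of NFO-only peaks and their distance from NSC and OPC peaks are given as a description without a test. Wide peaks and peaks at transcription start sites are more likely to meet a peak of another list. The criterion therefore also bears on width and on the distance to start sites, and these contrasts with the other NFO peaks are descriptions too.

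ChIP-Seq, the sequencing of DNA pulled down with an antibody to a protein or a histone mark, was used to map H3K4me3 and H3K27me3 in all 3 cell types and the transcription factor OLIG2 in OPCs and NFOs. NSCs were grown from cortices of CD-1 embryos (E14.5), whereas OPCs (purified by PDGFRα immunopanning) and NFOs (purified by GalC immunopanning) were taken from P7 C57BL/6 brains of both sexes, and no cells were treated. The sample labels give C57BL/6 for every sample, which differs from the growth protocol of the NSCs. Each cell type and target has 1 library, so there is no replicate error for any value, and cell type and library cannot be told apart. Against NSCs, strain, age and culture differ as well. Library depth is not known from the peak lists. The antibody that the labels name is that of the other histone mark for each of the 6 histone libraries, and the titles were followed. In the lists titled H3K4me3, 45.9% of NSC, 73.7% of OPC and 45.1% of NFO peaks lay within 1 kb of a transcription start site (TSS), against 8.37%, 14.9% and 21.7% in the lists titled H3K27me3. A listed NFO H3K4me3 peak within 2 kb of a TSS was found for 28.5% of all genes and 43.5% of protein-coding genes. Such a peak was found for 14 of 37 myelin and oligodendrocyte genes (37.8%), below the share of protein-coding genes. Among the other lists it was found for 11 of 13 OPC genes (84.6%) and 7 of 12 neuronal genes (58.3%). For endothelial and mural genes it was 3 of 10, and for microglial genes 0 of 12.

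H3K4me3 is trimethylation of lysine 4 on histone H3, and it is laid down by SET1 and MLL family methyltransferases, mostly over the nucleosomes that flank active or poised transcription start sites. CpG islands are the usual platform of the mark, because the methyltransferase complexes contain subunits that bind unmethylated CpG dinucleotides. NFOs are the stage at which OPCs leave the cell cycle and begin to make myelin proteins and lipids, and OLIG2 is a basic helix-loop-helix factor that the lineage needs from its specification onwards.

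The NFO-only peaks were narrow, lay mostly far from TSSs and were rich in repeated sequence. Their median width was 201 bp (middle 50% from 183 to 243 bp, largest 2367 bp), against 348 bp for the other NFO peaks, 214 bp for the 2422 OPC-only and 239 bp for the 16661 NSC-only H3K4me3 peaks, which were selected in the same way from their own lists. The narrowest had the smallest width of the NFO list, 172 bp. In all, 5950 of the NFO-only peaks (76.3%) were under 250 bp, 1174 (15.1%) reached 500 bp and 83 (1.06%) reached 1000 bp. Among the other NFO peaks 41.8% reached 500 bp. A wide peak is more likely to overlap another, so the choice of the peaks bears on these widths.

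**Figure D1:**
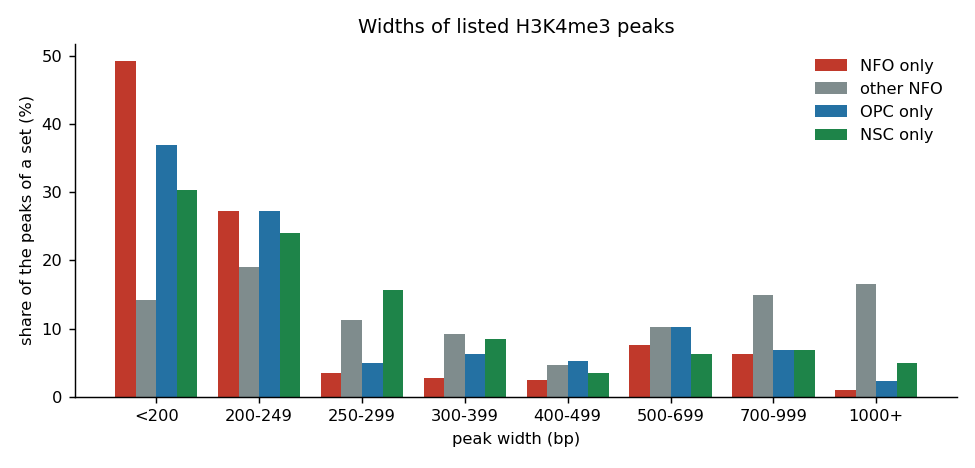
Share of peaks (%) in 8 width classes (bp) for NFO-only, other NFO, OPC-only and NSC-only H3K4me3 peaks on assembled chromosomes. The classes below 250 bp hold 49.3% and 27.2% of the NFO-only peaks, and the class from 1000 bp holds 1.03% of them against 16.5% of the other NFO peaks.

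The distance to the nearest NSC or OPC H3K4me3 peak, which the choice of the peaks constrains, had a median of 44321 bp, and 222 of the NFO-only peaks (2.85%) lay within 1 kb of one. At the edge of the criterion, an NFO-only peak in Tmem241 (chr18:12119498-12120170) began 2 bp from an NSC or OPC peak, and the NFO-only peaks near Bend3 (chr10:43476946-43477131) and in Fnbp1 (chr2:31058478-31059060) were each 3 bp from one. Just outside it, NFO peaks near Tspyl1 (chr10:34286289-34287062) and at Arl5c (chr11:97996112-97996343) shared 5 bp with an NSC or OPC peak, and one at D830030K20Rik (chr14:3208245-3208417) shared 9 bp. The fold enrichments of these 6 ranged from 2.53 to 5.32, and the widest spanned 774 bp.

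The fold enrichment over the control, as the peak caller gave it, was also lower than in the other NFO peaks. Its median was 3.59 in NFO-only peaks (middle 50% from 3.25 to 4.39, highest 18.5) and 4.70 in the other NFO peaks (highest 54.0). OPC-only and NSC-only peaks had similar medians to NFO-only peaks, 3.74 and 3.77. The methods of the study state a filter for histone marks that keeps a fold enrichment above 3.5 at an FDR under 0.05. It was passed by 4197 NFO-only peaks (53.8%), by 84.0% of the other NFO peaks, by 79.7% of OPC-only and by 63.9% of NSC-only peaks. A fold enrichment above 5 was reached by 1137 NFO-only peaks (14.6%) and 44.9% of the other NFO peaks. In OPC-only and NSC-only peaks it was reached by 8.79% and 13.9%.

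The 5 NFO-only peaks with the highest fold enrichment lay away from TSSs in sequence that was 59.9% to 100% repeat-masked. Sequences of 4 of them are shown, because they carry the repeated character of the set. They are from mm10 (GRCm38), forward strand, and the capitals mark the central 31 bases.
Chromosome 11 peak, chr11:15300665-15300913: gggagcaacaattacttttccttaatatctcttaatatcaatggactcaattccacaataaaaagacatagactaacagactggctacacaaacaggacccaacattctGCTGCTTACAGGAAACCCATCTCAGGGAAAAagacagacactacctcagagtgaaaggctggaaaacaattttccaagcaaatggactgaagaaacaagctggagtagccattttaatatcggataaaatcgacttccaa
Chromosome 4 peak, chr4:75309047-75309339: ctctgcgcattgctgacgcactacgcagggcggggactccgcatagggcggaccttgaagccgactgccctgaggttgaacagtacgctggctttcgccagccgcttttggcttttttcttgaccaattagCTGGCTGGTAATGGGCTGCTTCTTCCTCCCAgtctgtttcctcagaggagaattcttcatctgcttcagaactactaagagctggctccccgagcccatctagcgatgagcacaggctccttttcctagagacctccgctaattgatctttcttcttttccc
Chromosome X peak, chrX:29884689-29884913: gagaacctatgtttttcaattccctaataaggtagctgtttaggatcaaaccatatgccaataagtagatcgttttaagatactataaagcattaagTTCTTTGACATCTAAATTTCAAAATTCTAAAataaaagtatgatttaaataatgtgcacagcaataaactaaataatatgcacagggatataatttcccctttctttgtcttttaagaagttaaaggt
Chromosome 19 peak, chr19:9485888-9486084: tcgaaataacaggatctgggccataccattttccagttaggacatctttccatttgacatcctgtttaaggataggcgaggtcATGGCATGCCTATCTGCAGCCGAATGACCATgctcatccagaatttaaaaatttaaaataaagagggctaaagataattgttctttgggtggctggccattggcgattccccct

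The chromosome 11 peak had the highest fold enrichment, 18.5 (FDR 4.04e-37), and lay 701389 bp from the nearest TSS, that of Pom121l12. Its central 31 bases occur 7787 times in the assembled chromosomes, counting both strands. The chromosome 4 peak, with a fold enrichment of 15.4, lay 30742 bp from Dmac1, and its central word occurs 684 times. The chromosome X peak (fold enrichment 13.9) lay in the lncRNA gene Gm3669, and its central word occurs 37 times. The chromosome 19 peak (fold enrichment 13.7), 350252 bp from Asrgl1, holds a word that occurs 10 times. The remaining peak of the 5 (chr10:72297164-72297345, fold enrichment 14.3) is 4.95% GC and consists mostly of a run of 161 T.

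Over all NFO-only peaks, 51.3% (95% exact binomial interval 50.2 to 52.4, 3926 of the 7654 on assembled chromosomes) were at least 50% repeat-masked in the reference genome. The same share was 9.69% (9.2 to 10.2) of the other NFO peaks, 23.7% (22.0 to 25.4) of OPC-only and 35.1% (34.3 to 35.8) of NSC-only peaks. Here and elsewhere the intervals cover counting error only. Fully masked sequence made up 1937 NFO-only peaks (25.3%) and 1.52% of the other NFO peaks. Among the NFO-only peaks that passed the filter of the study the share at least 50% masked was 58.2%, and among the other NFO peaks that passed it 7.78%.

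Copy number was measured as the number of times that words of 31 bases, taken every 10 bases along a peak, occur in the assembled chromosomes. The median word of a peak occurred more than once in 3559 NFO-only peaks (46.5%, 45.4 to 47.6), called multi-copy below, and in 8.15% (7.7 to 8.61) of the other NFO peaks. It occurred at least 100 times in 1106 NFO-only peaks (14.4%) and in 0.585% of the others. In 1840 of the 7654 NFO-only peaks no word was single, although the authors kept uniquely mapped reads. A fragment longer than 31 bases can be unique where each such word is not, and the number of reads behind each peak is not known.

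Multi-copy and single-copy peaks differed in strength and place. The 3559 multi-copy NFO-only peaks had a median fold enrichment of 3.96 and the 4095 single-copy ones 3.29, and the filter of the study was passed by 68.6% and 40.2%. Multi-copy peaks were distal intergenic in 73.8% and within 1 kb of a TSS in 2.5%, and the single-copy peaks in 51.4% and 6.37%. Among single-copy NFO peaks, those that overlapped an NSC or OPC peak lay within 1 kb of a TSS in 72.7%. The low share near TSSs was therefore present in single-copy sequence too.

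Many NFO-only peaks were copies of one another. The 7654 NFO-only peaks on assembled chromosomes were aligned to each other, requiring at least 90% identity over at least 80% of both peaks. Of these, 2345 (30.6%) matched another NFO-only peak and formed 383 groups. The largest held 296 peaks on 21 chromosomes with a median width of 192.5 bp, and the chromosome 11 peak shown above is its member with the highest fold enrichment. The next held 233 peaks on 21 chromosomes, 73 of them on chromosome X, and groups of 47 and 27 peaks were on chromosome Y alone. Another group held 24 peaks, all on chromosome X, with a median fold enrichment of 5.27. Such copies share their sequence and are not independent observations. The member with the highest fold enrichment that lies outside UTRs is shown for 2 of these groups, chosen after their values were seen, again with the central 31 bases in capitals.
Group of 27 peaks, chrY:68832778-68832967: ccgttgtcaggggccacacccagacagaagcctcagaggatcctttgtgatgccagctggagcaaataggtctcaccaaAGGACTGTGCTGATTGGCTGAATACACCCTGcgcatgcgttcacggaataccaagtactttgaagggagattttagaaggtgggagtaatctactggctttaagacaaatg
Group of 24 peaks, chrX:25268100-25268287: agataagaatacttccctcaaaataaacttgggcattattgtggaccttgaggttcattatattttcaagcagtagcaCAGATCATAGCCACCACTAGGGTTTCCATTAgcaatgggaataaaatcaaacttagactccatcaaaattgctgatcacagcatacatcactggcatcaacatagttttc
The capital words of these occur 108 and 47 times.

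NFO-only peaks fell mostly outside promoters. Only 355 (4.55%, 4.1 to 5.04) lay within 1 kb of a TSS, 518 (6.65%) between 1 and 3 kb, 2075 (26.6%) in a gene body and 4830 (62.0%, 60.9 to 63.0) were distal intergenic. Among the other NFO peaks 67.8% (67.1 to 68.6) lay within 1 kb of a TSS and 12.3% (11.8 to 12.9) were distal intergenic. The OPC-only and NSC-only peaks lay between these, with 18.9% (17.4 to 20.5) and 14.0% (13.5 to 14.6) within 1 kb of a TSS. The median distance from an NFO-only peak to the nearest TSS was 27470 bp, against 335 bp for the other NFO peaks, 13815 bp for OPC-only and 5245 bp for NSC-only peaks. The choice of the peaks bears on these contrasts, because many NSC and OPC peaks lie near TSSs.

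**Figure D2:**
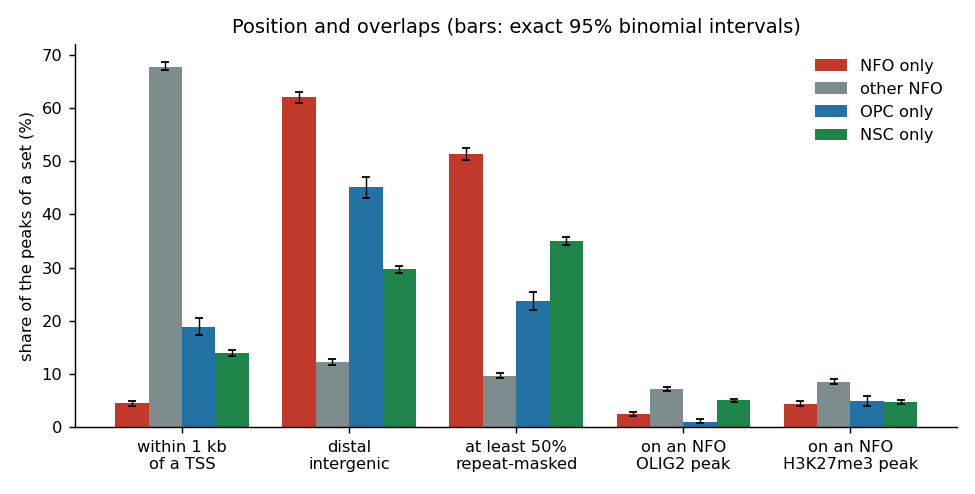
Share of peaks (%) within 1 kb of a TSS, distal intergenic, at least 50% repeat-masked, on an NFO OLIG2 peak and on an NFO H3K27me3 peak, for the 4 sets of H3K4me3 peaks, with exact 95% binomial intervals. NFO-only peaks have the lowest share near a TSS (4.55%) and the highest distal (62.0%) and masked (51.3%) shares of the 4 sets.

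The base composition differed in the same direction. NFO-only peaks had a median GC content of 39.4% and a median ratio of observed to expected CpG of 0.147, whereas the other NFO peaks had 49.5% and 0.51, the OPC-only peaks 44.1% and 0.275, and the NSC-only peaks 40.8% and 0.201. In the 200 bp around the peak centre, the GC box GGGCGG was found on either strand in 1.45% of NFO-only peaks, 17.8% of the other NFO peaks and 2582 of all 21501. CCAAT was found on either strand in 35.2%, 22.1% and 26.8%, TATAAA in 18.2%, 8.8% and 12.1%, and AACAAT, a word that SOX factors bind, in 18.7%, 8.67% and 12.2%. Words rich in A and T were thus more common, and GGGCGG less common, in the set of lower GC content. Such a match describes letters and not a bound site.

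The X and Y chromosomes carried more NFO-only peaks than the autosomes did. Chromosome X had 1268 of them, 7.76 per Mb of sequence without gaps, and chromosome Y had 625, or 7.09 per Mb. The 19 autosomes had between 1.76 and 4.15 per Mb (median 2.1), with the most on chromosome 7. NFO-only peaks were 71.4% of all NFO peaks on chromosome X and 96.5% on chromosome Y, against 19.2% to 39.6% on the autosomes. The OPC-only set had 122 of the 679 OPC peaks on chromosome X and 76 of the 99 on Y. The NSC-only set had 486 of the 1105 NSC peaks on X and 62 of the 72 on Y. In each list, most peaks on chromosome Y thus overlapped no peak of another cell type.

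On chromosome Y 98.7% of the NFO-only peaks were multi-copy and 8 were single-copy. On chromosome X 60.3% were multi-copy, and the single-copy ones still numbered 504, or 3.08 per Mb, above the 1.08 to 1.95 per Mb of single-copy NFO-only peaks on the autosomes. On all chromosomes with both, the median fold enrichment of NFO-only peaks was below that of the other NFO peaks, with 3.86 against 4.23 on chromosome Y. The whole H3K4me3 lists hold 648 peaks on chromosome Y in NFOs, 99 in OPCs and 72 in NSCs, while the H3K27me3 lists hold 7, 102 and 35. The sexes of the pooled mice are described as mixed for OPCs and NFOs, and the part of sex, strain and depth in these numbers was not tested.

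**Figure D3:**
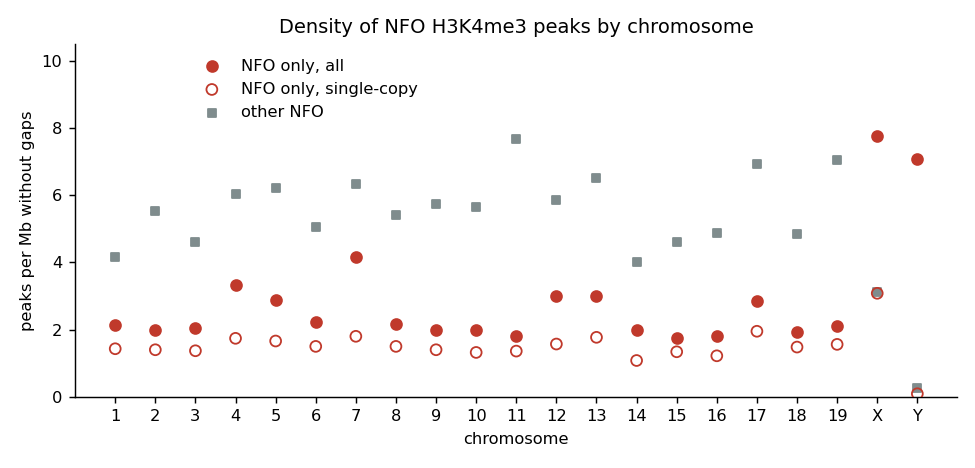
NFO H3K4me3 peaks per Mb of chromosome without gaps, for all NFO-only peaks (filled circles), single-copy NFO-only peaks (open circles) and other NFO peaks (squares). Chromosomes X and Y stand at 7.76 and 7.09 NFO-only peaks per Mb, and Y falls to 0.0908 when single-copy peaks alone are counted.

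Several of the densest bins held families of related genes. The densest bin of 1 Mb, chromosome X from 30000000 to 30999999, held 51 NFO-only and 4 other NFO peaks, with a median of 23 copies per word. Bins on chromosome 4 from 147000000 and 146000000 held 40 and 36 NFO-only beside 49 and 32 other NFO peaks, and contain Zfp genes, which encode zinc finger proteins, among them Zfp991, Zfp988 and Zfp600. The bin on chromosome 13 from 61000000 held 35 NFO-only and 5 other peaks and contains cathepsin genes (Ctsj, Ctsq, Ctsr). The bin on chromosome 7 from 22000000, with 34 NFO-only and 6 other peaks, contains vomeronasal receptor genes such as Vmn1r138 and Vmn1r139. The lncRNA genes Gm26573 and C230088H06Rik on chromosome 4 held the most NFO-only peaks of any gene body, 36 and 25. These genes are 871.5 and 474.0 kb long and lie within the bins of chromosome 4 named above, so their peaks are among those counted there.

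The families of the nearest genes differed between the sets. Of the 1503 NFO-only peaks within 10 kb of a protein-coding TSS, 78 (5.19%) were nearest to an odorant receptor gene (Olfr), 49 (3.26%) to a Vmn1r gene and 27 (1.8%) to a Vmn2r gene, the 2 families of vomeronasal receptors. These are large families, and of all 22028 protein-coding genes Olfr genes make up 5.15%, Vmn1r genes 0.953% and Vmn2r genes 0.558%, so the share near Olfr genes was close to their share of genes. Among 11300 other NFO peaks within that distance, 9, 4 and 4 were. The OPC-only set had 16, 6 and 3 such peaks of 793, and the NSC-only set 44, 7 and 5 of 8992. Genes with a provisional Gm symbol were nearest in 14.2% of the NFO-only and 1.89% of the other NFO peaks, and Zfp genes in 4.13% and 3.41%, where Gm genes make up 6.86% and Zfp genes 1.79% of all protein-coding genes. These gene families were chosen after their values were seen.

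Unplaced and unlocalized sequences, which belong to the assembly but have no fixed place on a chromosome, held 141 NFO-only peaks (1.81%, 1.52 to 2.13) on 22 sequences, against 0.674% (0.545 to 0.825) of the other NFO peaks. JH584299, assigned to chromosome 5, held 52 of them, and JH584297, also assigned to chromosome 5, held 13. No sequence features are given for these 141 peaks. Their median fold enrichment was 4.2.

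Most of the wide NFO-only peaks held a long run of A or T. Of the 1142 peaks of at least 500 bp on assembled chromosomes, 779 (68.2%, 65.4 to 70.9) held a run of at least 12 A or 12 T, against 34.2% (33.0 to 35.5) of other NFO peaks of that width. Below 200 bp the share was 1.59% in NFO-only peaks and 1.53% in the others, and from 300 to under 400 bp it was 61.7% and 13.6%. The share was similar in wide single-copy (69.6%, 65.7 to 73.3) and wide multi-copy NFO-only peaks (66.8%, 62.7 to 70.7). In OPC-only peaks from 500 to under 700 bp it was 24.4%. In NSC-only peaks runs were more frequent in the narrowest classes, with 63.5% under 200 bp and 81.6% from 200 to under 250 bp, than in the classes from 500 bp, with 39.7% to 54.9%.

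The runs lay towards the ends of the wide NFO-only peaks and faced a fixed way. Of the 413 peaks whose longest run was of T on the forward strand, 380 had it in the lower of 3 equal parts of the peak, and of the 366 with a run of A, 326 had it in the upper part. The central part held 56 of the 779 runs. In the wide other NFO peaks with a run, 521 of 1984 lay in the central part. The same facing was present there to a lesser degree. Of their 997 T runs, 612 lay in the lower and 126 in the upper part. Of their 987 A runs, 592 lay in the upper and 133 in the lower part. OPC-only wide peaks showed the arrangement of the NFO-only ones, with 51 of 52 T runs in the lower and 52 of 58 A runs in the upper part. In NSC-only wide peaks, 375 of 755 T runs lay in the lower and 316 in the upper part. According to the peak names, reads were single for NSCs and paired for the other cell types, so read type and cell type cannot be told apart here.

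Both a T run in the lower part and an A run in the upper part were present in 114 of the 1142 wide NFO-only peaks, and the opposite pair in 3. The single-copy example with the highest fold enrichment, chr9:78426718-78427567 (850 bp, fold enrichment 6.09, FDR 6.68e-18, 15318 bp from the TSS of Cgas), is shown by its flanks, with the runs in capitals.
Lower flank, chr9:78426781-78426845: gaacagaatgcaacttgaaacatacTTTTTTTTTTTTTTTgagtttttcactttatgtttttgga
Upper flank, chr9:78427357-78427422: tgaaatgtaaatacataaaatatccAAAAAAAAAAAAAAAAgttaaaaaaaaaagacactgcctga
The T run is 15 and the A run 16 bases long.

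**Figure D4:**
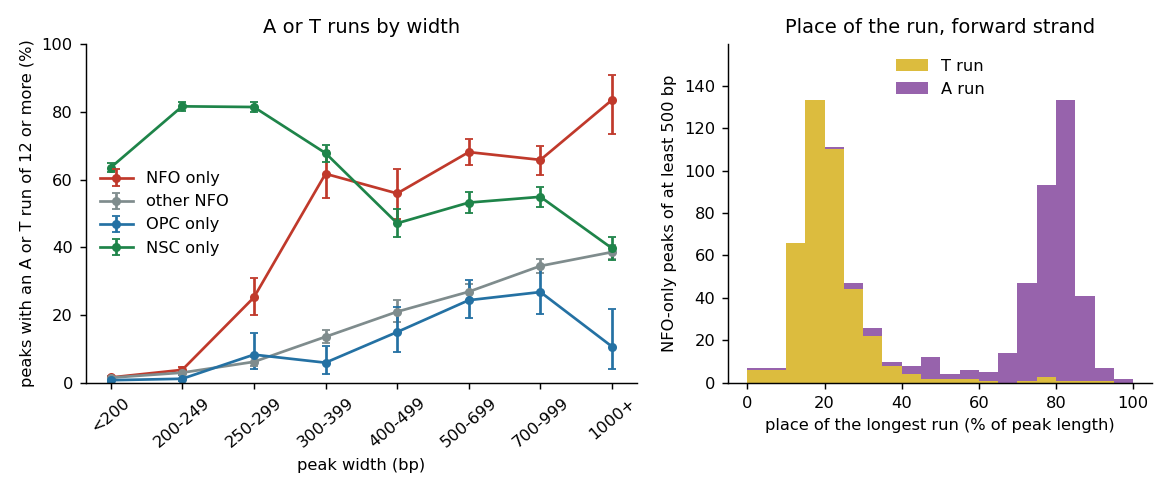
Left, share of peaks (%) with a run of at least 12 A or T by peak width (bp) in the 4 sets, with exact 95% binomial intervals. Right, stacked counts of peaks by the place of the longest run in NFO-only peaks of at least 500 bp, in % of the peak length on the forward strand: T runs gather between 10% and 35% and A runs between 65% and 90%.

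The wide NFO-only peaks were weaker than the narrow ones. Their median fold enrichment was 3.25, against 3.67 in NFO-only peaks under 500 bp, and 397 of the 1174 (33.8%) passed the filter of the study. The widest lay on chromosome X (chrX:126013884-126016250, 2367 bp, fold enrichment 3.82), 1307 bp from the TSS of Gm17267, with a repeat-masked share of 94.0%. A peak of 2207 bp lay on the unplaced sequence GL456367, and others of 2156 and 1682 bp on chromosome X near Btbd35f27 and Astx5. The fourth widest, at Strn (chr17:78682628-78684324, 1697 bp), was the only one of these 5 that lay in single-copy sequence within 1 kb of a TSS.

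NFO-only peaks coincided with NFO OLIG2 peaks less often than the other NFO and the NSC-only peaks did, and more often than OPC-only peaks. An NFO OLIG2 peak that passed the OLIG2 filter of the study (fold enrichment above 5, FDR under 0.05) overlapped 199 of them (2.55%, 2.21 to 2.93), against 1009 (7.24%, 6.81 to 7.68) of the other NFO peaks and 5.56% of all NFO H3K4me3 peaks. It overlapped 27 of the OPC-only peaks (1.11%, 0.736 to 1.62) and 5.07% of the NSC-only peaks. The difference from the other NFO peaks was also present among peaks under 500 bp (2.37% and 6.65%), among peaks of at least 500 bp (3.58% and 8.06%) and among distal intergenic single-copy peaks (4.42%, 3.58 to 5.38, and 10.8%, 9.02 to 12.8). Of the 14076 NFO OLIG2 peaks, 199 overlapped an NFO-only peak and 1031 another NFO H3K4me3 peak.

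The 199 NFO-only peaks with OLIG2 were mostly single-copy (180) and distal intergenic (104) or in a gene body (70), and 8 lay within 1 kb of a TSS. An OPC OLIG2 peak overlapped 11 of them. For all NFO-only peaks, an OPC OLIG2 peak overlapped 0.731% (0.554 to 0.946), against 6.08% of the other NFO and 0.784% (0.473 to 1.22) of OPC-only peaks. The E-box word CANNTG, the general form that basic helix-loop-helix factors such as OLIG2 recognize, is palindromic and was found in the 200 bp around the centre of 72.9% (66.1 to 78.9) of the 199, in 64.7% (63.6 to 65.7) of all NFO-only peaks and in 55.7% of the other NFO peaks. The E-box CAGCTG was found in 5.63% of NFO-only, 8.75% of other NFO and 7.64% of all NFO peaks.

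Among NFO-only peaks of at least 500 bp with OLIG2, of which there were 42, the highest fold enrichment was 7.31, at a distal intergenic peak of 767 bp 17480 bp from 4933406B17Rik (chr8:95513927-95514693), which an NFO H3K27me3 peak covered as well. Next came a peak in the lncRNA gene 1700057H15Rik (chr4:124443450-124444195, fold enrichment 4.79), where the OLIG2 peak had a fold enrichment of 12.3 and an OPC OLIG2 peak was also present. The third lay 11248 bp from Sult2a7 (chr7:14505478-14506084, fold enrichment 4.5). The fifth, with a fold enrichment of 3.88, lay 760 bp from a TSS of Acacb (chr5:114174490-114175146), which encodes an acetyl-CoA carboxylase that makes malonyl-CoA. The stretch shared with the OLIG2 peak is shown for 4 of them, with each CANNTG word in capitals.
Near 4933406B17Rik, chr8:95514495-95514693: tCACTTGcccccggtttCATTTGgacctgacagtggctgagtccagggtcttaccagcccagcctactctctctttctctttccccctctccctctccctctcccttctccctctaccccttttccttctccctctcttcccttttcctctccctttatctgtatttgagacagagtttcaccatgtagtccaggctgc
In 1700057H15Rik, chr4:124443450-124443602: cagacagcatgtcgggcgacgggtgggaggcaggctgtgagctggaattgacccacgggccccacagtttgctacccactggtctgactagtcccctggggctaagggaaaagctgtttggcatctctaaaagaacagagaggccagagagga
Near Sult2a7, chr7:14505512-14505747: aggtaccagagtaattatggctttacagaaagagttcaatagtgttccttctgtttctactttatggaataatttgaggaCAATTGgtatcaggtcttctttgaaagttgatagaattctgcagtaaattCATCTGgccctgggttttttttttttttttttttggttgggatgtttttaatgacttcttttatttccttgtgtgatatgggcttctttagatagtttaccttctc
Near Acacb, chr5:114174490-114174703: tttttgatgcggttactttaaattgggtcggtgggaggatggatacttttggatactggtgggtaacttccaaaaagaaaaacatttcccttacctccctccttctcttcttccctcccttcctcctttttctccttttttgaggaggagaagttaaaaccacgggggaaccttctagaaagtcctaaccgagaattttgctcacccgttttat
The stretches near 4933406B17Rik and Sult2a7 hold 2 such words each, and the other 2 stretches hold 0.

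The fourth of these 5 peaks lay 60772 bp from Csnk1g3 on chromosome 18 (chr18:53993016-53993796, 781 bp, fold enrichment 3.98), and its sequence is not shown.

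H3K27me3, the mark of Polycomb repression, was found on 347 NFO-only peaks in NFOs (4.45%, 4.0 to 4.93), against 8.59% (8.13 to 9.06) of the other NFO peaks and 7.1% of all. In OPC-only (4.87%) and NSC-only peaks (4.78%) the share was similar to that of all NFO-only peaks. Among the 4095 single-copy NFO-only peaks it was 7.74%, nearer to that of all the other NFO peaks. OPC H3K27me3 was found on 618 NFO-only peaks (7.93%), against 13.2% of the other NFO peaks and 11.3% of all. NSC H3K27me3 was found on 504 (6.47%), against 1468 of the 13941 other NFO peaks and 9.07% of all. OPC-only and NSC-only peaks overlapped OPC H3K27me3 in 8.55% and 12.3%, and NSC H3K27me3 in 4.75% and 21.8%. Of the 347 NFO-only peaks with NFO H3K27me3, 195 also overlapped H3K27me3 in OPCs alone, 111 in both OPCs and NSCs, 2 in NSCs alone and 39 in neither. H3K27me3 in NSCs alone was overlapped by 346 NFO-only and 514 other NFO peaks. On chromosome X, 178 of the 1268 NFO-only peaks (14.0%, 12.2 to 16.1) overlapped NSC H3K27me3, and 25 (1.97%) NFO H3K27me3. The NSC H3K27me3 list holds 3617 of its 36069 peaks on chromosome X, and the NFO list 565 of its 12688. No share for the other NFO peaks on chromosome X is given beside these.

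Few genes had an NFO-only peak near their start. Of 43270 annotated genes, 12353 (28.5%) had any NFO H3K4me3 peak within 2 kb of a TSS and 673 (1.56%) had an NFO-only one. An NFO-only peak of at least 500 bp was found for 108 genes (0.25%), 70 protein-coding and 38 lncRNA genes, on 97 peaks. Of these 97, 69 lay in single-copy sequence, 11 on chromosome X or Y and 5 on unplaced sequences, 64 held an A or T run of at least 12, and 26 passed the filter of the study. For 13 of the genes the peak covered a TSS. For 48 of the 108 genes an NSC or OPC peak was also present within 2 kb of a TSS, and for 60 it was not.

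**Figure D5:**
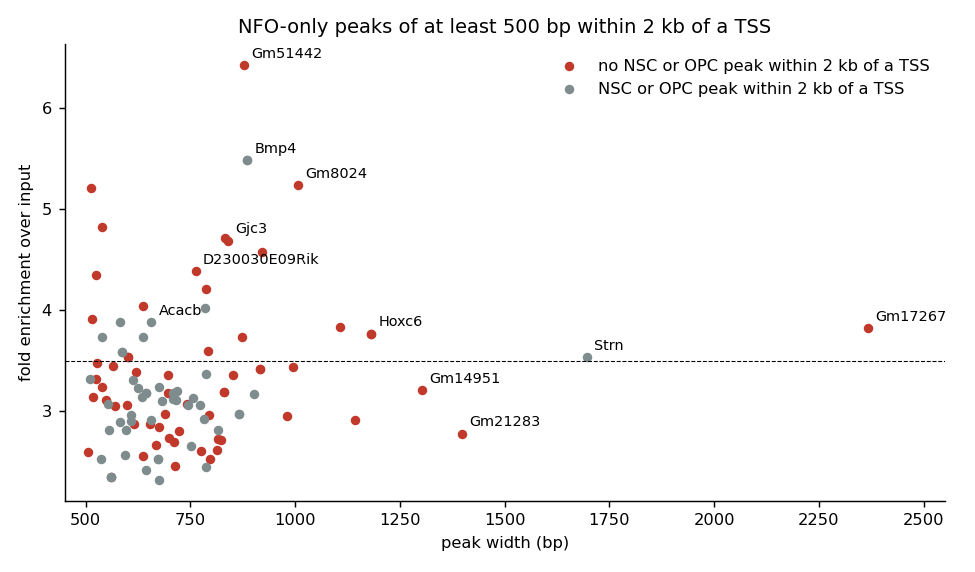
Fold enrichment against width (bp) of NFO-only peaks of at least 500 bp within 2 kb of a TSS, 1 point per gene, coloured by whether NSCs or OPCs have any H3K4me3 peak within 2 kb of a TSS of that gene. The dashed line marks the fold enrichment of 3.5 used by the study, and 5 genes have a peak above 5.

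Among promoters without an NSC or OPC peak, Gjc3 had one of the stronger NFO-only peaks. Gjc3 encodes connexin 29, a gap junction protein of oligodendrocytes and Schwann cells. Its peak (chr5:137961661-137962500) was 840 bp wide with a fold enrichment of 4.69 (FDR 3.1e-11), lay 595 bp from a TSS and 122235 bp from the nearest NSC or OPC H3K4me3 peak. It overlapped no OLIG2 and no H3K27me3 peak. Its sequence is 38.5% GC, 61.8% repeat-masked and single-copy.

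The highest fold enrichment at a gene was 6.43, at the lncRNA gene Gm51442 (chr7:26779960-26780836, 877 bp), 66796 bp from any NSC or OPC peak and with an OPC H3K27me3 peak. Gm8024, a protein-coding gene, had a peak of 1007 bp over its TSS with a fold enrichment of 5.24 (chr14:42523840-42524846), in sequence with a median of 15 copies. AC165294.3 and AC164084.2 on unlocalized sequences of chromosome 5 had peaks of 513 and 538 bp with fold enrichments of 5.21 and 4.82. The lncRNA genes Gm36208 (4.72), Gm26573 (4.58) and D230030E09Rik (4.39) followed. D230030E09Rik had its peak of 763 bp 159 bp from the TSS, in single-copy sequence, with H3K27me3 peaks in OPCs and NFOs. Hoxc6, a homeobox gene of the Hoxc cluster, had a peak of 1181 bp over a TSS (chr15:102997163-102998343, fold enrichment 3.77, FDR 1.75e-07) that it shared with the lncRNA gene Gm29905. This peak overlapped H3K27me3 in NSCs, OPCs and NFOs, and the nearest NSC or OPC H3K4me3 peak lay 3007 bp away.

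Among promoters that were marked in the other cell types too, Bmp4 had the highest fold enrichment. Bmp4 encodes a secreted ligand of the BMP family. Its NFO-only peak (chr14:46388612-46389496, 885 bp, fold enrichment 5.49, FDR 7.97e-06), shared with the lncRNA gene Gm15222, lay 1039 bp from a TSS and 853 bp from an NSC or OPC peak. Closer to the TSS, NSCs had a peak of 1202 bp with a fold enrichment of 8.33, OPCs one of 1465 bp with 11.2 and NFOs one of 260 bp with 19.5. The NFO-only peak overlapped H3K27me3 in all 3 cell types. The central 200 bp of the peaks at Gjc3 and Bmp4 are shown to compare their content of CpG, which is in capitals.
Gjc3, chr5:137961981-137962180: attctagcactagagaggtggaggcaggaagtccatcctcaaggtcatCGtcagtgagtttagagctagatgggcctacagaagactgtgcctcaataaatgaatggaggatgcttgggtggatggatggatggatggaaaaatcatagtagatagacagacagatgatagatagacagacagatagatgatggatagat
Bmp4, chr14:46388955-46389154: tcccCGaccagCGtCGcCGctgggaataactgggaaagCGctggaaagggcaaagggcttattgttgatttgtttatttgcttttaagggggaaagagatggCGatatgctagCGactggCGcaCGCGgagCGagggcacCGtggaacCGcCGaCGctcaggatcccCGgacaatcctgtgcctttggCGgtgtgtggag
The Gjc3 stretch holds 1 CpG and the Bmp4 stretch 17.

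At Strn, which encodes the scaffold protein striatin, the NFO-only peak of 1697 bp (fold enrichment 3.54, FDR 0.0287) lay 28 bp from an annotated TSS, and the main promoter of the gene carried H3K4me3 in all 3 cell types. There the NSC peak spanned 3890 bp, the OPC peak 2181 bp and the NFO peak 1057 bp. Gm17267 (2367 bp), Gm21283 (1398 bp, fold enrichment 2.78) and Gm14951 (1303 bp, 3.21) completed the 5 widest together with the peak at Hoxc6 and Gm29905. At Acacb, NSCs had 3 H3K4me3 peaks within 2 kb of a TSS, of 203 to 675 bp and with fold enrichments of 3.11 to 3.63, and OPCs had none listed.

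Some further genes, chosen after their values were seen, show how close to existing marks such peaks can be. S100b, which encodes a calcium-binding protein of glia, had an NFO-only peak of 539 bp with a fold enrichment of 3.74 that lay 68 bp from an OPC peak of 930 bp with 3.61 over its TSS, and no NSC peak was listed there. Fst, which encodes the activin-binding protein follistatin, had an NFO-only peak of 586 bp (3.59) 650 bp from a peak of the other cell types, which had 2 peaks in NSCs and 3 in OPCs around the same promoter. Kit, a receptor tyrosine kinase gene, had NSC, OPC and NFO peaks at its main promoter with fold enrichments of 10.4, 11.2 and 16.2, and its NFO-only peak (609 bp, 2.9) lay at another annotated TSS in sequence with a median of 72.5 copies.

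Genes of the lists had an NFO-only peak at their start about as often as all genes did. No gene of the 9 lists (37 myelin and oligodendrocyte, 13 OPC, 10 NSC, 12 neuron, 8 astrocyte, 12 microglia, 10 endothelial and mural, 4 blood, and 19 of cholesterol and myelin lipid synthesis) had one of at least 500 bp within 2 kb of a TSS, where 0.25% of all genes did. A shorter one was found for 2 genes, and 1.56% of all genes had an NFO-only peak. Of the 22028 protein-coding genes, 428 had an NFO-only peak and 70 had one of at least 500 bp. Nfasc, which encodes the adhesion protein neurofascin of the axoglial junction, had one of 219 bp 1482 bp from a TSS (chr1:132740057-132740275, fold enrichment 3.25, FDR 0.0726), which did not pass the filter of the study. Kdr, the VEGF receptor gene of endothelial cells, had one of 186 bp 1812 bp from its TSS (chr5:75980270-75980455, fold enrichment 5.06, FDR 1.34e-09), which did.

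In the same lists, any H3K4me3 peak within 2 kb of a TSS was listed for 25 of the 37 myelin and oligodendrocyte genes in NSCs, 23 in OPCs and 14 in NFOs. For the cholesterol and myelin lipid genes, the counts were 19, 19 and 14 of 19. In the same order they were 12, 12 and 11 of 13 OPC genes, 10, 10 and 6 of 10 NSC genes, 10, 9 and 7 of 12 neuronal genes and 6, 4 and 3 of 8 astrocyte genes. Among markers of other cells they were 1, 2 and 0 of 12 microglial, 3, 3 and 3 of 10 endothelial and mural and 1, 1 and 0 of 4 blood genes. Over all genes the shares were 43.3%, 39.6% and 28.5%, and over protein-coding genes 64.1%, 60.6% and 43.5%. The NFO list thus held fewer promoters than the OPC list in each gene list except the endothelial and mural one, and the part of depth in this was not tested.

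NFO-only peaks also lay in the bodies of some list genes, 1 of the 37 myelin and oligodendrocyte genes, 2 of the 13 OPC genes (15.4%) and 1 of the 12 neuronal genes, and in none of the other lists. Nfasc held one of 183 bp besides the one near its start, Sox5, a SoxD transcription factor gene of OPCs, held 2 of 237 and 200 bp with fold enrichments of 3.63 and 3.68, Lhfpl3 held one of 606 bp (3.84) and the neuronal gene Syt1 one of 546 bp (2.65). Over all genes, 5.26% had an NFO-only peak in their body, and over protein-coding genes 7.35%.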

How the data were processed

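Chromatin from NSCs, OPCs and NFOs was profiled by ChIP-Seq, with 1 library per cell type and target among 13 libraries. As the methods and the submitters' processing notes describe, the authors used Bowtie2 and the mm10 (GRCm38) genome for alignment and MACS2 (broad, histone marks) or SPP (OLIG2) for peaks. Only uniquely mapped reads were kept, and blacklisted regions were removed. The deposited peak lists give each peak's fold enrichment over the control and the −log10 of its q-value, both as the authors' peak caller wrote them. Those lists contain peaks below the stated filter. Membership used every listed H3K4me3 peak, while overlaps with OLIG2 and H3K27me3 used peaks past the filter (fold enrichment above 5 and above 3.5, FDR under 0.05). Read depth is unknown, and replicate error cannot be estimated. Input libraries and RIP lists were not used here, and the 13 libraries include no OLIG2 ChIP-Seq of NSCs. The sequence of 1 group of matching peaks is not reported here.

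Overlaps required 1 bp. TSSs came from GENCODE (22028 protein-coding and 13374 lncRNA genes) and from 7868 lncRNA genes of NCBI, and classes were taken in the order within 1 kb of a TSS, 1 to 3 kb, gene body, up to 300 bp downstream and distal intergenic. Repeat masking, GC content and sequences came from the GRCm38 reference. Copies were counted for words of 31 bases every 10 bases on both strands, and a single-copy peak is one whose median word occurs once. Peaks were aligned to each other with BLAST 2.17.0. Computation used Numba 0.67.0, NetworkX 3.6.1, SciPy 1.17.1, pandas 2.3.3, NumPy 2.4.6 and Matplotlib 3.10.9 under Python 3.11.15. Intervals are exact (Clopper-Pearson, 95%) and cover counting error only. The overlap step was tested on simulated data and gave the right answer for 2000 of 2000 regions. No test between cell types was possible.

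The peaks and gene lists (myelin and oligodendrocyte, OPC, NSC, neuron, astrocyte, microglia, endothelial and mural, blood, and cholesterol and myelin lipid synthesis) were chosen with earlier results of these data known. Genes were named by rule: the 10 with the highest fold enrichment and the 5 with the widest peak among genes with an NFO-only peak of at least 500 bp within 2 kb of a TSS, any list gene with an NFO-only peak, the 5 strongest and 5 widest NFO-only peaks, the 5 strongest of at least 500 bp on OLIG2, and 3 peaks on each side of the overlap criterion. The alternatives tried were the peak filters, the overlap that counts as shared, the annotation, the distance, width and masking limits, single-copy peaks alone and autosomes alone.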

Additional observations from a re-analysis of the deposited data

How the results depend on the processing

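Of 86 values under alternatives, 34 stayed within the 95% interval of the main value, or within 1.5 times of it for counts, and 52 moved. With NFO peaks past the filter of the study alone, 4197 peaks were NFO-only, 65.5% were distal intergenic, 58.2% masked, 2.6% on unplaced sequences and 1.91% on OLIG2, and 30 genes had a wide peak near a TSS (20 without an NSC or OPC peak). With a fold enrichment above 5, these were 1137, 69.8%, 63.5%, 3.25%, 1.58%, 5 and 3, with a median width of 203 bp, 3.52% within 1 kb of a TSS and 6.16% on NFO H3K27me3. With filtered NSC and OPC peaks, 2.17% were on unplaced sequences, 2.33% within 1 kb of an NSC or OPC peak and 5.07% on H3K27me3, and 94 genes without an NSC or OPC peak had a wide peak. Counting a peak as shared only where at least 50% was covered gave a median width of 203 bp, 5.26% within 1 kb of a TSS, 8.17% within 1 kb of an NSC or OPC peak and 196 genes.

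Single-copy peaks alone, an alternative added after seeing the data, gave a median width of 198 bp, 6.37% within 1 kb of a TSS, 51.4% distal, 26.3% masked, 4.4% on OLIG2, 7.74% on H3K27me3, 4.13% within 1 kb of an NSC or OPC peak, and 37 genes without an NSC or OPC peak. Autosomes alone, also added after seeing the data, gave 5.28% within 1 kb of a TSS, 55.3% distal, 43.4% masked, 3.11% on OLIG2, 5.57% on H3K27me3 and 3.44% within 1 kb of an NSC or OPC peak. With protein-coding genes alone, 2.96% lay within 1 kb of a TSS and 70.8% were distal, and the gene counts were 70 and 31. A limit of 1 kb from the TSS gave 55 and 31 genes, and a minimum width of 1000 bp gave 9 and 8. Requiring 80% masked bases gave 38.6%. All listed OLIG2 peaks gave 3.03%, those with a fold enrichment above 10 gave 1.15%, all listed H3K27me3 peaks gave 5.38% and an H3K27me3 overlap of at least 200 bp gave 2.12%. Counts fall under stricter limits by construction, and the cause of the other shifts was not tested. No paired analysis was possible because each cell type and target has 1 library. Absence from a list means that no peak was called there, and unknown depth limits what such absence shows.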
